A study of Mus musculus with 4 samples.

Results

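The genes described here are 10 receptor genes of natural killer (NK) cells, *Ncr1*, *Klrb1b*, *Klrb1c*, *Klrd1*, *Klrk1*, *Klre1*, *Klrc1*, *Klra1*, *Klra7* and *Klrg1*, read in T cells and innate lymphoid cells of the mouse small intestine. They were chosen by name, matched by gene ID in both libraries, and are 10 of the 31,950 gene IDs that the libraries share. The data were single-cell RNA-Seq of lamina propria cells from the proximal small intestine of 12-week-old mice. One group was WT, and the other was *A20ZF7*, which carried point mutations on both alleles in the seventh zinc finger of A20, the part that binds linear (M1) ubiquitin. For each genotype, cells of 2 mice were pooled into 1 library for gene expression after they had been negatively selected for T cells and innate lymphoid cells (ILCs), so that every share of cells was shaped by that selection. With 1 library per genotype there was no replicate and no test between genotypes. Values are unique molecular identifiers (UMIs, one per captured transcript) per 1000000 UMIs (CPM), intervals are exact 95% intervals that cover counting error only, and a gene was past the 2-fold limit where its ratio was at most 0.5 or at least 2 and its interval left out 1.

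NK receptors read the state of other cells and set the threshold for cytotoxicity and cytokine release, and several of them are also carried by CD8 T cells, γδ T cells and ILCs of the gut. *Ncr1* encodes NKp46, an activating receptor of NK cells, ILC1 and a subset of ILC3, and *Klrk1* encodes NKG2D, which binds stress-induced ligands. *Klrb1c* encodes NK1.1 and *Klrb1b* its inhibitory relative NKR-P1B, which binds Clr-b. *Klrd1* (CD94) pairs with NKG2A, the product of *Klrc1*, to bind the nonclassical MHC molecule Qa-1, and with NKG2C. *Klre1* encodes a further lectin-like receptor of NK cells, *Klra1* and *Klra7* encode Ly49A and Ly49G, which bind classical MHC class I, and *Klrg1* encodes an inhibitory receptor for cadherins that is typical of ILC2s, effector T cells and a subset of regulatory T cells.

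On the GRCm38 build, 9 of the 10 genes lie on chromosome 6 and *Ncr1* lies on chromosome 7 (4337724 to 4345164, plus strand). *Klre1*, *Klrd1*, *Klrk1* and *Klrc1* follow each other between 129577905 and 129678973 on chromosome 6, *Klra7* and *Klra1* lie between 130218605 and 130386874, *Klrb1c* and *Klrb1b* lie between 128778485 and 128826331, and *Klrg1* lies at 122270596 to 122282882. RefSeq promoters (GRCm38.p6, 250 bases before to 50 after the start) were matched for 8 genes. The promoters of 3 genes are printed, chosen from the genes that were highest in WT ILC3-like cells among the classes. These 3 differed there by unlike amounts between genotypes (ratios of CPM, *A20ZF7* over WT, of 0.295 for *Klrk1*, 0.466 for *Ncr1* and 0.688 for *Klrb1b*). *Klrb1c* was also highest there, with a ratio of 0.428. Capitals mark matches on either strand to motifs of lymphocyte factors. The letters searched were TCACAC for a T-box half-site and TGTGGT for a RUNX motif. For a GATA motif they were AGATAA and for an ETS motif AGGAAG. No matches overlap in the printed windows. The *Klrb1c* window, which held 4 matches to the RUNX and ETS motifs, is not printed.

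Ncr1, chr7:4337465-4337764, plus strand: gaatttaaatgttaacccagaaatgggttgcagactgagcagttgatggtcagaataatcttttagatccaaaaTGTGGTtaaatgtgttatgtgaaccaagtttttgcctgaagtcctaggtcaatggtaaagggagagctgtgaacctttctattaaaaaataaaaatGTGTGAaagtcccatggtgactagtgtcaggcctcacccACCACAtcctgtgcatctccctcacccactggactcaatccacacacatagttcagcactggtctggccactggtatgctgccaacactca

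Klrb1b, chr6:128826266-128826565, minus strand: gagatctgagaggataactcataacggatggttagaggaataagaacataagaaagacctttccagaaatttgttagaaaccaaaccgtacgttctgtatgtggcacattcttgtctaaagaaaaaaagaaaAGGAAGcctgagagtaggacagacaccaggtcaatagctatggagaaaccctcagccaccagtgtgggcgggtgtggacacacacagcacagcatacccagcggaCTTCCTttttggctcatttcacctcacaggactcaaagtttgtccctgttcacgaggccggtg

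Klrk1, chr6:129623815-129624114, minus strand: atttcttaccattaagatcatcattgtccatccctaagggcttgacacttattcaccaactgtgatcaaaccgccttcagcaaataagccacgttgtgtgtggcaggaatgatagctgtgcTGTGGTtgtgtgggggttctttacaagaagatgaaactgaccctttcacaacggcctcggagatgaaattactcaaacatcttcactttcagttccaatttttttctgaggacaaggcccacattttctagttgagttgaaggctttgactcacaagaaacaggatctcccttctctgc

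The *Ncr1* window held 3 matches (T-box and a RUNX pair), the *Klrb1b* window held 2 (an ETS pair), and the *Klrk1* window held 1 (RUNX). Over the 12 promoters of the 8 genes, 7 held the RUNX motif, 6 the ETS motif, 5 the T-box half-site and 1 the GATA motif. Among 32,851 promoters of the same length, the respective shares were 16.8%, 35.4%, 14.5% and 11.2%. A match is a run of letters and was not read as a bound site, and some of the 12 windows overlap each other.

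After filtering, 14,734 WT and 43,162 *A20ZF7* cells remained, with medians of 1059 and 853 UMIs. Of these, 2295 WT and 16,082 *A20ZF7* barcodes fell in T cell clusters, and 2993 and 5621 fell in innate lymphoid clusters. When the same barcodes were split by a UMI of a T cell receptor or CD3 gene (the UMI gate), 1527 WT and 4474 *A20ZF7* barcodes were innate. Part of the barcodes in innate clusters of both libraries thus held such a UMI. The mean level of *Cd3d*, *Cd3e*, *Cd3g* and *Trac* in these clusters was 0.190 to 0.462 of that in the highest cluster. The NK receptor genes were left out of the clustering and of the names, which rest on marker genes, so that each class is called like the cell type it resembles. The genotypes shared clusters unevenly. ILC3-like cells were mostly cluster 9 in WT (1203 of 1325 barcodes) and cluster 2 in *A20ZF7* (3193 of 3291), ILC2-like cells mostly cluster 8 in WT (1264 barcodes) and cluster 3 in *A20ZF7* (2287), and the remaining CD4 T or NKT-like cells mostly cluster 7 in WT (928) and cluster 4 in *A20ZF7* (2350). CD8 T-like cells were a single cluster with 536 WT and 3438 *A20ZF7* barcodes. At resolution 1.5 the CD8 T-like cells were a pair of clusters, which held 92.4% and 7.60% of them in WT and 44.3% and 55.7% in *A20ZF7*. Stromal cells (7292 WT and 14,137 *A20ZF7* barcodes), which should lack these receptors, gave one measure of background. It holds free RNA, the transcripts that leak from other cells into a droplet, and may hold lymphocytes caught in the same droplet. Barcodes of at most 50 UMIs, far below the limit for a cell, gave a higher measure, with WT and *A20ZF7* levels of 50.3 and 19.4 CPM for *Klrd1*, 43.5 and 29.2 CPM for *Klrk1* and 87.0 and 56.9 CPM for *Klrb1b*. Levels of *Klrk1* in WT T cell barcodes (45.3 CPM) and of *Klrd1* in WT other CD4 T or NKT-like cells (50.8 CPM) lay within the counting intervals of that second measure.

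Among the 8 classes of resolution 0.8 in WT, *Ncr1*, *Klrb1b*, *Klrb1c* and *Klrk1* were highest in ILC3-like cells, *Klrd1*, *Klrc1*, *Klre1*, *Klra1* and *Klra7* in CD8 T-like cells, and *Klrg1* in Treg-like cells. The few ILC1 or NK-like cells that were named only at resolution 1.5 had higher WT levels of 8 members, with *Klrd1* at 389 CPM and *Klre1* at 278 CPM. For *Klra7* the CD8 T-like and ILC3-like levels did not differ beyond their intervals. *Ncr1* stood at 97.6 CPM (82.0 to 115) in WT ILC3-like cells, against 7.06 CPM in stromal cells, and the interval of every other WT class held the stromal level. *Klrb1b* stood at 652 CPM (610.4 to 696) in ILC3-like, 224 CPM (169 to 291) in γδ T-like and 114 CPM (98.9 to 130.2) in ILC2-like cells, an order in which no intervals met. In the remaining WT classes *Klrb1b* lay between 17.3 and 39.2 CPM, under its stromal level of 44.8 CPM, and was read as background there. In barcodes of at most 50 UMIs, *Ncr1* stood at 10.2 and 4.17 CPM and *Klrb1c* at 19.7 and 9.72 CPM.

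*Klrb1c* stood at 89.8 CPM (74.8 to 107) in WT ILC3-like cells, followed by CD8 T-like (27.7 CPM (14.8 to 47.4)), other CD4 T or NKT-like (27.6 CPM (18.8 to 39.2)) and γδ T-like cells (24.0 CPM (8.80 to 52.2)), and the last 3 overlapped. *Klrk1* stood at 171 CPM (150.1 to 194) in ILC3-like, 95.9 CPM (70.0 to 128) in CD8 T-like and 87.9 CPM (55.1 to 133) in γδ T-like cells, and the last 2 overlapped. The gene of NKG2D was thus read in innate and T cells, and that of NKp46 above the stromal level in ILC3-like cells.

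*Klrd1* stood at 318 CPM (269 to 373) in WT CD8 T-like cells, 66.3 CPM (53.5 to 81.2) in ILC3-like and 50.8 CPM (38.5 to 65.8) in other CD4 T or NKT-like cells, and the last 2 overlapped. Its partner *Klrc1* stood at 107 CPM (79.1 to 141) in CD8 T-like and 37.8 CPM (28.3 to 49.4) in ILC3-like cells, and *Klre1* at 74.6 CPM (52.0 to 104) and 27.1 CPM (19.2 to 37.2). *Klrg1* had another order, with 242 CPM (161 to 349.6) in Treg-like, 112 CPM (68.4 to 173) in dividing T and 109 CPM (94.4 to 125) in ILC2-like cells. Its Treg-like and dividing T levels overlapped, as did the last 2. The WT Treg-like and dividing T classes held only 115 and 96 barcodes. In ILC3-like cells *Klrg1* stood at 14.96 CPM (9.26 to 22.9), beside 10.4 CPM in stromal cells.

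**Figure D1:**
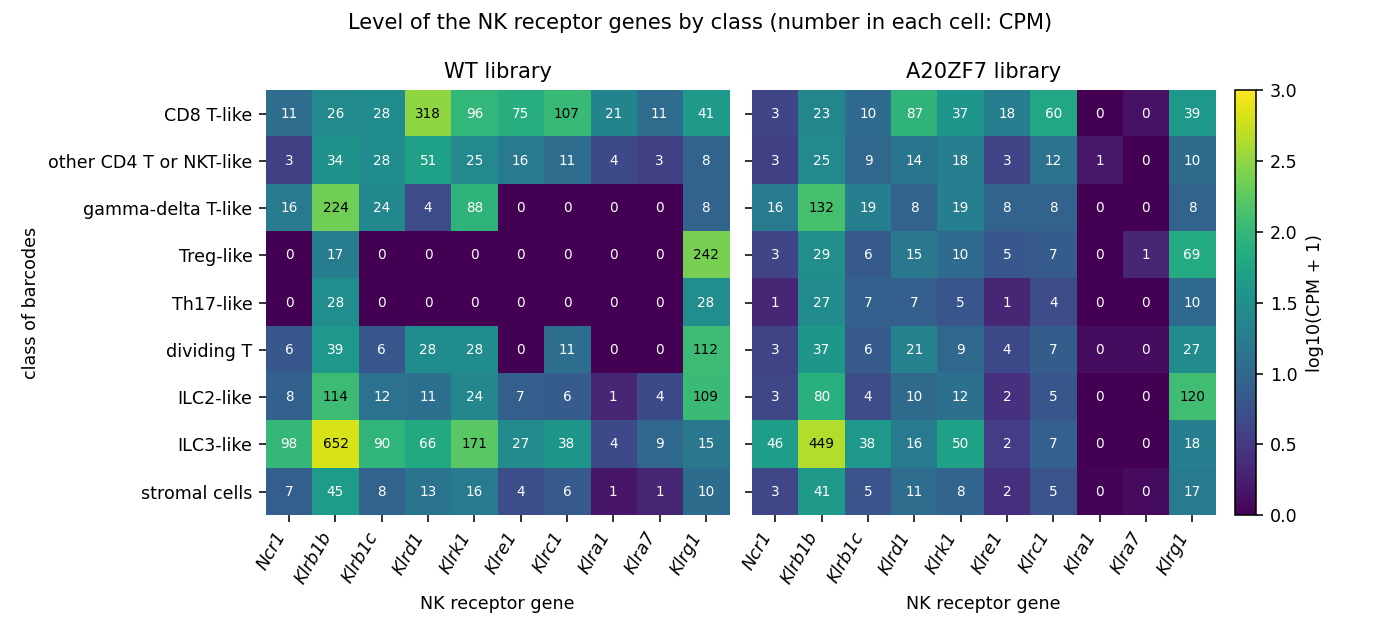
CPM of each NK receptor gene (columns) in each class of barcodes (rows) of the WT and the A20ZF7 library, with the value printed and the color on a log10(CPM + 1) scale. *Klrb1b* was highest in ILC3-like cells in both libraries (652 and 449 CPM) and *Klrd1* in CD8 T-like cells (318 and 87.3 CPM), and the stromal row gives a measure of background.

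In T cell barcodes, all 10 members had a lower level in *A20ZF7* than in WT, and 6 of 10 (*Klrb1c*, *Klrd1*, *Klrk1*, *Klre1*, *Klra1* and *Klra7*) were past the 2-fold limit downward and none upward. Among the 6061 genes with a mean of at least 20 CPM, 1.34% were past it downward and 2.11% upward. Of the 5 members above that mean, 2 (*Klrd1* and *Klrk1*) were past it downward. *Klrd1* went from 96.1 CPM (83.6 to 109.9) in WT to 27.0 CPM (24.3 to 29.9), a ratio of 0.281 (0.237 to 0.334). *Klrk1* went from 45.3 CPM in WT to 14.7 CPM in *A20ZF7*, a ratio of 0.325 (0.254 to 0.417), and *Klre1* had a ratio of 0.245 (0.171 to 0.353). In barcodes of at most 50 UMIs *Klrk1* stood at 43.5 and 29.2 CPM, near the WT and above the *A20ZF7* T cell level. *Klrc1* (ratio 0.557, 0.420 to 0.747) and *Klrg1* (ratio 0.758, 0.595 to 0.978) differed by less. The median ratio was 0.557 over these 5 members and 1.03 over all genes above that mean, and 0.332 over the 10 members, of which 5 lay below it.

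In innate lymphoid barcodes, all 10 members were again lower in *A20ZF7*, and 7 of 10 (*Klrb1c*, *Klrd1*, *Klrk1*, *Klre1*, *Klrc1*, *Klra1* and *Klra7*) were past the 2-fold limit downward and none upward, where 1.54% of 6288 genes were past it downward and 2.16% upward. Of the 6 members with a mean of at least 20 CPM, 3 were past it downward. The median ratio was 0.531 over these 6 members and 1.01 over all genes above that mean. *Klrk1* went from 87.1 CPM (77.3 to 97.9) to 32.7 CPM (27.9 to 37.9), a ratio of 0.375 (0.308 to 0.455). *Klrb1c* lay at the limit with 45.7 and 22.7 CPM (ratio 0.497, 0.387 to 0.637). *Ncr1* had a ratio of 0.565 (0.445 to 0.716), *Klrb1b* one of 0.809 (0.748 to 0.875), and *Klrg1* one of 0.946 (0.797 to 1.13), an interval that held 1. This count depended on the processing: 2 members were past the limit downward, and *Ncr1* turned to a ratio of 2.70, past it upward, *Klrb1b* to 1.62 and *Klrb1c* to 1.27, with up to 5000 genes per cell, where the cluster with most WT ILC3-like cells took no name. With the UMI gate, *Klrd1* had a ratio of 0.962 in innate barcodes.

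**Figure D2:**
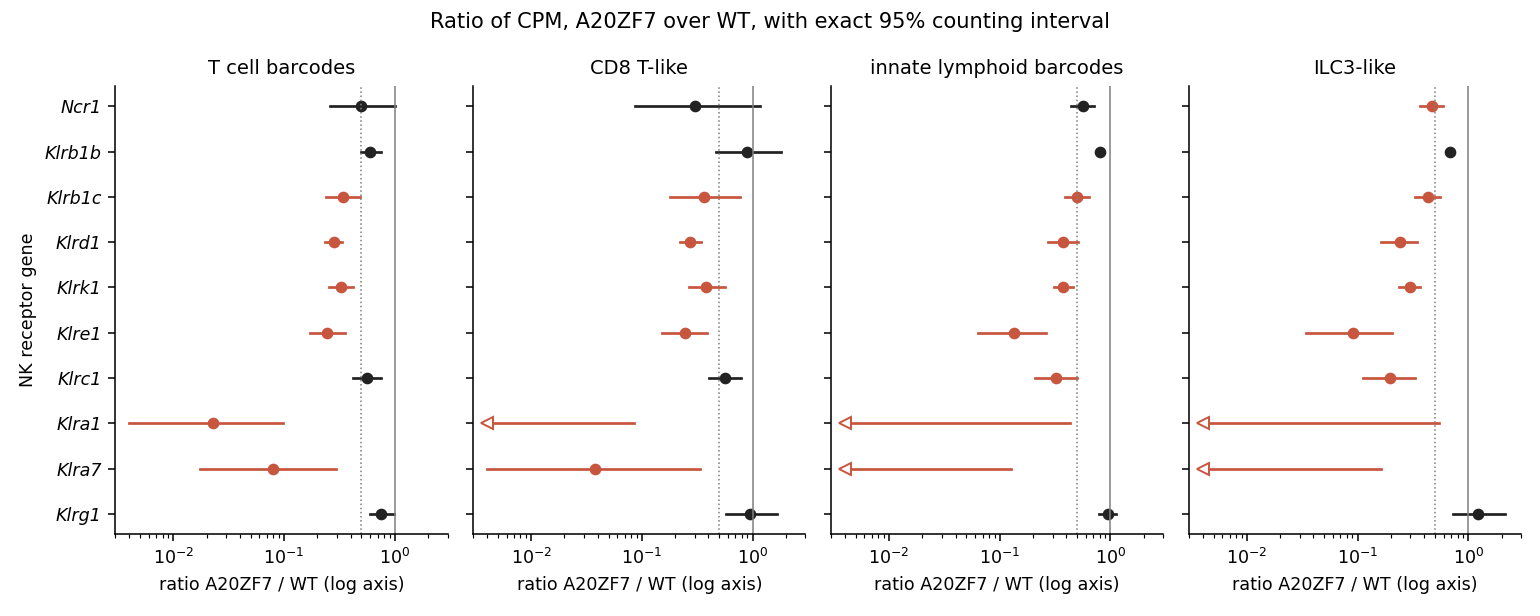
Ratio of CPM, A20ZF7 over WT, for each NK receptor gene in 4 sets of barcodes, on a log axis, with exact 95% counting intervals (points and bars, red where past the 2-fold limit). Open arrowheads mark genes with no UMI in A20ZF7, the solid line is a ratio of 1 and the dotted line 0.5, and *Klrd1* lies between 0.240 and 0.377 in all 4 sets. With the UMI gate, not drawn here, the *Klrd1* ratio in innate barcodes was 0.962.

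The T cell comparison mixes classes whose shares differ between the libraries, as Th17-like barcodes, which had few of these transcripts, were 80 of the WT and 4950 of the *A20ZF7* barcodes. With the *A20ZF7* classes weighted as in WT, the summed level of the 10 members in T cell barcodes was 0.467 of the WT level, against 0.417 (0.382 to 0.455) without weights. *Klrd1* then had a ratio of 0.303, *Klre1* of 0.294 and *Klrc1* of 0.716. CD8 T-like cells, 1 cluster at resolution 0.8, gave a comparison within a class.

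Within CD8 T-like cells, 6 of 10 members were past the 2-fold limit downward and none upward, where 2.15% of 5918 genes were past it downward and 3.65% upward. Of the 6 members with a mean of at least 20 CPM there, 3 were past it, with a median ratio of 0.472 against 1.004 over all genes above that mean. *Klrd1* went from 318 to 87.3 CPM (76.0 to 99.7), a ratio of 0.275 (0.222 to 0.341), and *Klre1* from 74.6 CPM in WT to 18.2 CPM in *A20ZF7*, a ratio of 0.244 (0.153 to 0.390). *Klrk1* went from 95.9 CPM in WT to 36.8 CPM in *A20ZF7*, a ratio of 0.383 (0.265 to 0.561). *Klrc1*, which encodes the partner of CD94, differed by less (107 and 59.8 CPM, ratio 0.561, 0.404 to 0.789). *Klrg1* stood at 40.5 and 38.8 CPM (ratio 0.957, 0.581 to 1.66), and *Klrb1b* (25.6 and 22.6 CPM) lay under its stromal level in both libraries.

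The clusters of resolution 1.5 were read separately, a step chosen after seeing the data, because the genotypes were spread unevenly over them, and barcodes named CD8 T-like at both resolutions were counted. In the first, with 474 WT and 1278 of the *A20ZF7* CD8 T-like barcodes, 7 of 10 members were past the limit downward and none upward (2.91% of 5939 genes with a mean of at least 20 CPM downward and 3.81% upward). Of the 6 members that reached that mean there, 3 were past the limit downward. *Klrd1* stood there at 334 and 94.4 CPM (ratio 0.283, 0.219 to 0.364), *Klrk1* at 96.1 and 36.6 CPM (ratio 0.381, 0.243 to 0.599) and *Klre1* at 72.1 and 14.7 CPM (ratio 0.203, 0.107 to 0.377), while *Klrc1* had a ratio of 0.527 (0.357 to 0.784). The second held 37 WT and 1898 *A20ZF7* barcodes, with median depths of 719 and 506 UMIs and 15 member UMIs in WT. *Klre1* alone was past the limit in it (147 and 21.2 CPM, ratio 0.145, 0.0491 to 0.577, 2.81% of 5980 genes with a mean of at least 20 CPM downward and 0.853% upward), and *Klrd1* stood at 183 and 83.8 CPM, a ratio of 0.457 (0.189 to 1.44), an interval that held 1. For *Klrd1* and *Klrk1*, a difference was not detectable in the second cluster at this depth.

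The share of CD8 T-like barcodes with a *Klrd1* UMI was 20.3% in WT and 5.64% in *A20ZF7*, at median depths of 787 and 614 UMIs. After thinning to 500 UMIs per barcode, which left out none of the WT and 1006 of the *A20ZF7* barcodes, the shares were 13.99% (11.2 to 17.2) and 4.19% (3.43 to 5.07), against 0.535% and 0.383% in stromal cells (median depths before thinning of 1137 and 1035 UMIs). For *Klrk1* the thinned shares were 4.85% (3.19 to 7.03) and 1.69% (1.21 to 2.28), and for *Klrc1* 5.41% (3.65 to 7.68) and 3.21% (2.54 to 3.99). The *Klrd1* and *Klrk1* shares did not overlap between genotypes, and the *Klrc1* shares did.

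Of 11 signaling partners of these receptors, 8 had a mean of at least 20 CPM in CD8 T-like cells, with a median ratio of 0.843. Of these, 2 adaptor genes typical of innate cells were past the limit downward and none upward. *Tyrobp*, which encodes the adaptor DAP12, stood at 136 and 16.2 CPM in WT and *A20ZF7* CD8 T-like cells (ratio 0.118, 0.0777 to 0.179), and *Fcer1g*, the Fc receptor γ chain, at 271 and 47.7 CPM (ratio 0.176, 0.136 to 0.228). In all, 13.99% of the WT and 4.10% of the *A20ZF7* CD8 T-like barcodes had a UMI of either gene. Among the barcodes without one, *Klrd1* stood at 284 CPM (234 to 341) in WT and 88.5 CPM (76.9 to 101) in *A20ZF7*, a ratio of 0.312 (0.247 to 0.395), and *Klre1* had a ratio of 0.279 (0.167 to 0.473) and *Klrk1* of 0.446 (0.298 to 0.683). *Klrb1c* had one of 0.554 (0.230 to 1.53) there and was not past the limit. A barcode without such a UMI may still be an innate cell, as few transcripts of a cell are read at this depth. Other lists of innate markers did not go the same way. Of 7 ILC3 markers with a mean of at least 20 CPM in CD8 T-like cells, 5 were past the limit upward (*Il23r*, *Il22*, *Il1r1*, *Tmem176a* and *Tmem176b*) and none downward, with a median ratio of 3.13. In epithelial cells these 5 were also past it upward, with a median ratio of 2.73 over 7 ILC3 markers. *Il23r* and *Il22* were past it upward in stromal cells as well, so the rise was not particular to CD8 T-like cells. Of 9 ILC1 or NK markers in CD8 T-like cells, *Eomes* and *Prf1* were past it upward and *Xcl1* downward, with a median ratio of 0.908. The part of innate cells in the difference was not tested further. *Tbx21* and *Eomes*, which encode the T-box factors of cytotoxic lymphocytes, did not move together, with ratios of 0.576 (0.420 to 0.801) and 2.32 (1.71 to 3.22).

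**Figure D3:**
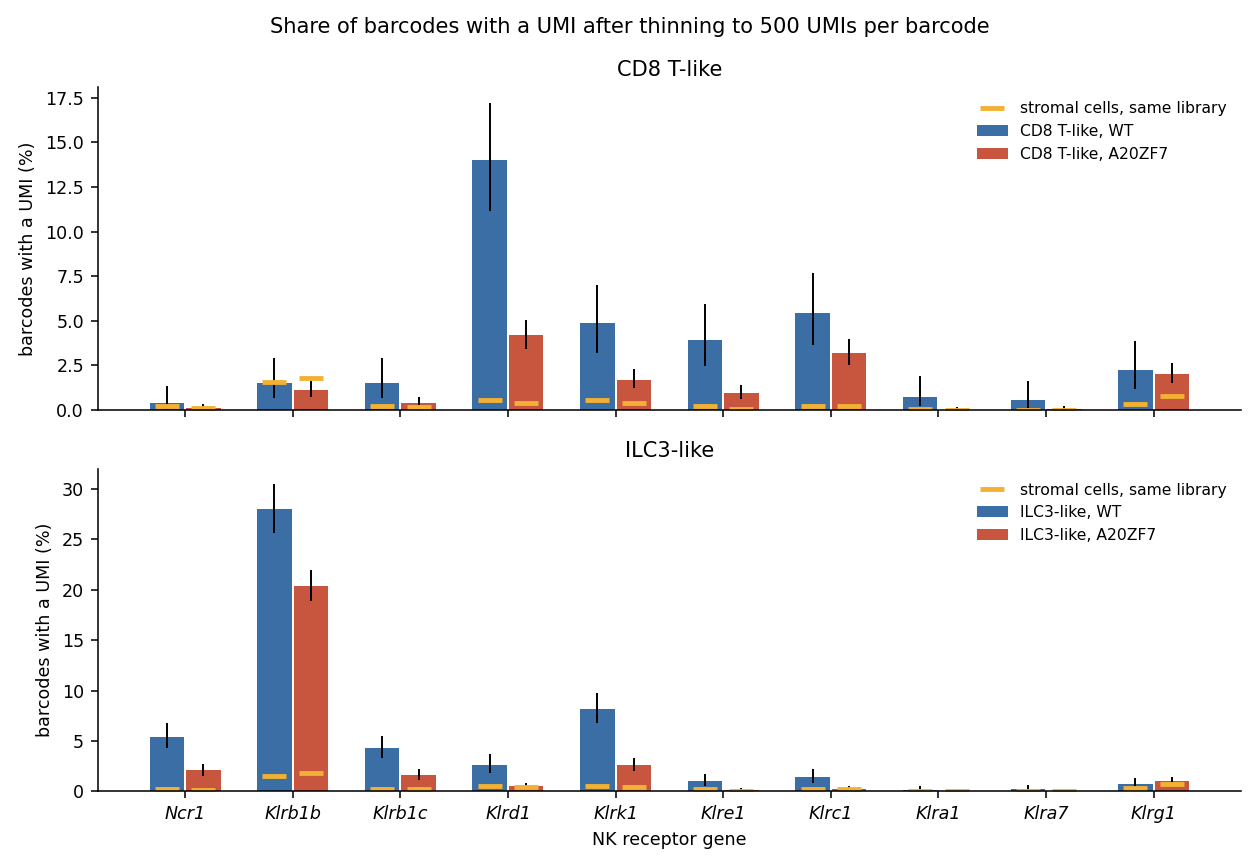
Share of CD8 T-like and ILC3-like barcodes with a UMI of each NK receptor gene after thinning every barcode to 500 UMIs, in percent, with exact binomial 95% intervals (bars with lines). Yellow marks give the share in stromal cells of the same library, and *Klrd1* in CD8 T-like cells (13.99% in WT and 4.19% in A20ZF7) and *Klrb1b* in ILC3-like cells (28.0% and 20.4%) stand above them.

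In ILC3-like cells, 8 of 10 members were past the 2-fold limit downward and none upward, where 1.72% of 6397 genes were past it downward and 3.1% upward. Of the 6 members with a mean of at least 20 CPM there, 5 were past it, with a median ratio of 0.362 against 1.03 over all genes above that mean. *Klrk1* went from 171 to 50.4 CPM (42.5 to 59.4), a ratio of 0.295 (0.238 to 0.364), and *Klrd1* had a ratio of 0.240 (0.164 to 0.346). *Klrd1* stood at 66.3 and 15.9 CPM, and its intervals met those of barcodes of at most 50 UMIs (39.5 to 63.2 and 10.6 to 32.6 CPM). The part of that background in the *Klrd1* difference was not tested. *Klrc1* stood at 37.8 and 7.41 CPM (ratio 0.196, 0.112 to 0.331) and *Klre1* at 27.1 and 2.47 CPM (ratio 0.0912, 0.0344 to 0.207). In *A20ZF7* ILC3-like cells these levels were close to those of *A20ZF7* stromal cells, at 4.82 CPM for *Klrc1* and 1.62 CPM for *Klre1*. *Ncr1* went from 97.6 to 45.5 CPM (38.0 to 54.1), a ratio of 0.466 (0.364 to 0.597), and *Klrb1c* stood at 89.8 and 38.5 CPM (ratio 0.428, 0.328 to 0.558). *Klrb1b* had a ratio of 0.688 (0.632 to 0.750), and *Klrg1* one of 1.23 (0.726 to 2.14).

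These ILC3-like values compare mostly different clusters. Within cluster 2 (122 WT and 3193 *A20ZF7* barcodes), 3 members were past the limit downward, *Klrk1* (164 and 49.2 CPM, ratio 0.3001, 0.185 to 0.514), *Klrd1* (51.8 and 15.7 CPM, ratio 0.303, 0.128 to 0.870) and *Klrb1c* (94.9 and 35.4 CPM, ratio 0.372, 0.199 to 0.771), whereas *Ncr1* had a ratio of 0.852 (0.380 to 2.37). Within cluster 9 (1203 WT and 98 *A20ZF7* barcodes), no member was past the limit: *Klrk1* stood at 172 and 88.0 CPM (ratio 0.513, 0.219 to 1.03), *Ncr1* at 102 and 88.0 CPM (ratio 0.865, 0.366 to 1.75) and *Klrb1c* at 89.3 and 132 CPM (ratio 1.48, 0.742 to 2.68). With the innate clusters weighted as in WT, the summed ratio was 0.871 instead of 0.666 (0.628 to 0.706), *Klrb1c* had a ratio of 1.18, *Ncr1* of 0.793 and *Klrg1* of 2.59, while *Klrd1* had a ratio of 0.3005 and *Klrk1* of 0.436. Cluster and genotype could hardly be told apart here. No share over all genes is given within cluster 2 or cluster 9, so their counts of members have no background beside them.

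A cluster named ILC1 or NK-like appeared only at resolution 1.5, with 87 WT and 23 *A20ZF7* barcodes. Its 10 leading genes were *Tyrobp*, *Xcl1*, *Ccl3*, *Ccl4*, *Klre1*, *Gzmc*, *Klrb1c*, *Ncr1*, *Klrd1* and *Fcer1g*, so 4 of them were members. In its WT barcodes, *Klrb1b* stood at 566 CPM, *Klrd1* at 389 CPM, *Klrb1c* at 333 CPM, *Ncr1* at 233 CPM and *Klrc1* at 199.9 CPM. UMIs of at least 2 members were found in 60.9% of them and in 22.0% of all WT ILC3-like barcodes. The *A20ZF7* barcodes held 22 member UMIs in all, and no member was past the limit there (past it were 0.597% of 5862 genes downward and 2.32% upward). Without these cells, *Klrd1*, *Klrk1*, *Klre1*, *Klrc1*, *Klra1* and *Klra7* were past the limit in innate lymphoid barcodes, and the summed ratio was 0.710 (0.668 to 0.754). In ILC3-like cells without them, these 6 members were again past the limit (*Klrd1* ratio 0.331, 0.219 to 0.498, *Klrk1* 0.302, 0.242 to 0.375), but *Ncr1* (0.502, 0.387 to 0.652) and *Klrb1c* (0.508, 0.383 to 0.674) were not, and the summed ratio was 0.572 (0.533 to 0.614). For the sets without these cells no share over all genes is given beside the counts.

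The Ly49 genes were rare and showed a wide difference, in part at levels near the background. In WT barcodes of at most 50 UMIs, *Klra1* stood at 2.04 CPM (0.421 to 5.96) and *Klra7* at 4.76 CPM (1.91 to 9.80). The WT levels of *Klra7* in T cell (3.63 CPM) and innate lymphoid barcodes (6.14 CPM) and of *Klra1* in innate lymphoid barcodes (2.15 CPM) lay within these intervals. In WT CD8 T-like cells *Klra1* (21.3 CPM, 10 UMIs) and *Klra7* (10.7 CPM, 5 UMIs) lay above them. In *A20ZF7* CD8 T-like cells *Klra1* had no UMI and *Klra7* had 1. In stromal cells both genes were also past the limit downward. *Klra1* had 14 UMIs in WT T cell barcodes (6.35 CPM) and 2 in *A20ZF7* (0.144 CPM), a ratio of 0.0226 (0.00250 to 0.0985), and *Klra7* had 8 and 4 UMIs, a ratio of 0.0792 (0.0175 to 0.296). In innate lymphoid barcodes, *Klra7* had 20 UMIs in WT (6.14 CPM) and none in *A20ZF7*. Against a floor of 3 counts in the *A20ZF7* barcodes, the WT level was 10.7-fold higher for *Klra7* and 3.75-fold higher for *Klra1*, which had 7 UMIs. These folds leave out the counting error of WT. The interval of the ratio reached up to 0.126 for *Klra7* and 0.432 for *Klra1*. Of the 11 *Klra* genes listed in both libraries, *Klra3*, *Klra5*, *Klra9*, *Klra8* and *Klra6* also had more UMIs in WT T and innate lymphoid barcodes (26, 13, 12, 6 and 5) than in the deeper *A20ZF7* library (3, 4, 3, 0 and 1). *Klra17* (0 and 16 UMIs) and *Klra2* (0 and 11 UMIs) were read in *A20ZF7* alone, *Klra4* had 1 UMI there and *Klra10* had none in either. Over all 11, the summed level was 20.3 CPM in WT and 2.35 CPM in *A20ZF7*. These genes are close relatives, and 3.333% of the 90-base windows of *Klra7* also occur in another annotated gene. The libraries were also counted with different gene lists, with 1746 gene IDs listed for WT alone and 335 for *A20ZF7* alone, and the effect of this on counts of close relatives was not tested.

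*Klrg1* followed other cells than the rest. In ILC2-like cells it stood at 109 CPM in WT and 119.5 CPM (106 to 134.2) in *A20ZF7*, a ratio of 1.098 (0.914 to 1.32). Within cluster 3 the ratio was 0.558 (0.435 to 0.723), and within cluster 8, which had 43 *A20ZF7* barcodes, it was 4.32 (2.44 to 7.21). The members past the limit in ILC2-like cells were *Klrb1c*, *Klrk1*, *Klre1* and *Klra7*, all downward (2.46% of 6028 genes with a mean of at least 20 CPM downward and 3.22% upward), but none of these 4 reached that mean, and of the 2 members that did, none was past the limit. The WT ILC2-like levels of these 4 (12.4, 23.7, 7.01 and 3.77 CPM) lay under those of WT barcodes of at most 50 UMIs. There *Klrb1c* stood at 19.7, *Klrk1* at 43.5 and *Klra7* at 4.76 CPM, and the *Klre1* interval was 9.37 to 22.6 CPM. In *A20ZF7* barcodes of at most 50 UMIs all 4 were lower than in WT. The part of this background in the ILC2-like differences was not tested. In Treg-like cells *Klrg1* went from 242 to 68.6 CPM (57.1 to 81.7), a ratio of 0.283 (0.187 to 0.444) that rests on 28 WT UMIs, and it was the only member past the limit (2.72% of 5996 genes with a mean of at least 20 CPM downward and 1.85% upward). In dividing T cells it also was the only one, with 112 and 27.1 CPM (ratio 0.242, 0.149 to 0.413), 20 WT UMIs and 2.26% of 6030 such genes downward and 3.18% upward. ILC2-like cells held 66.7% of the WT and 39.8% of the *A20ZF7* *Klrg1* UMIs among the named classes.

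In γδ T-like cells, *Klrk1* stood at 87.9 and 18.8 CPM (ratio 0.214, 0.0773 to 0.519) and was the only member past the limit (2.74% of 6060 genes with a mean of at least 20 CPM downward and 3.25% upward), and *Klrb1b* stood at 224 and 132 CPM (ratio 0.589, 0.393 to 0.880). In other CD4 T or NKT-like cells, *Klrd1* (50.8 and 13.7 CPM, ratio 0.270, 0.162 to 0.439), *Klrb1c* (27.6 and 8.78 CPM, ratio 0.318, 0.162 to 0.599) and *Klre1* (16.05 and 3.29 CPM, ratio 0.205, 0.0667 to 0.540) were past it downward (1.41% of 5876 such genes downward and 1.89% upward). Of the 3 members with that mean there, 1 (*Klrd1*) was past it. The WT levels of *Klrd1*, *Klrb1c* and *Klre1* lay within the intervals of WT barcodes of at most 50 UMIs (39.5 to 63.2, 13.2 to 28.3 and 9.37 to 22.6 CPM). In *A20ZF7* barcodes of at most 50 UMIs these genes stood at 19.4, 9.72 and 1.39 CPM. The part of this background in their differences was not tested. Th17-like cells had 4 member UMIs in 80 WT barcodes, and no member was past the limit there (3.0% of 5935 such genes downward and 1.62% upward).

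The stromal level itself differed between the libraries. In stromal cells, *Ncr1*, *Klre1*, *Klra1* and *Klra7* were past the limit downward and none upward (3.02% of 7309 genes with a mean of at least 20 CPM downward and 4.54% upward), with *Ncr1* at 7.06 and 3.31 CPM (ratio 0.468, 0.323 to 0.677) and *Klre1* at 4.32 and 1.62 CPM (ratio 0.376, 0.224 to 0.623). Of the members, only *Klrb1b* reached that mean in stromal cells, and it was not past the limit. *Klrg1* was higher in *A20ZF7* (10.4 and 16.8 CPM, ratio 1.61, 1.28 to 2.05). Transcripts of T cells were more common in the *A20ZF7* stromal barcodes, with *Cd3e* at 81.4 and 266 CPM, and in ILC3-like cells *Cd3e* stood at 296 and 383 CPM. The part of this background in the differences was not tested beyond the subtraction that follows. The stromal level of the same library was taken off gene by gene, and a gene under that level was counted as absent. The summed ratio was then 0.244 in T cell and 0.635 in innate lymphoid barcodes.

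Within WT, hashtags told the mice apart. In CD8 T-like cells, *Klrd1* stood at 308 CPM (238 to 391) in mouse 1 and 339 CPM (265 to 427) in mouse 2, and *Klrk1* at 106 CPM (66.9 to 158) and 89.4 CPM (53.8 to 139.6). The *A20ZF7* values of both genes lay under both WT mice. In ILC3-like cells, *Klrk1* stood at 138 CPM (106 to 176) and 129.6 CPM (98.9 to 167) and *Klrd1* at 79.8 and 84.2 CPM, again above *A20ZF7*. *Ncr1* (116 CPM (87.5 to 152) and 62.6 CPM (41.9 to 89.96)) and *Klre1* (49.6 CPM (31.5 to 74.5) and 19.4 CPM (8.89 to 36.9)) differed more between the mice, with intervals that met. They rest on 54 and 29 UMIs for *Ncr1* and 23 and 9 for *Klre1*. Separate intervals that meet are a looser rule than the ratio interval used between genotypes, which is not given between the mice. Meeting intervals were thus not read as equal levels. The intervals of the mice met for all 10 members in T cell and in innate lymphoid barcodes. The *Ncr1* value of mouse 2 overlapped that of *A20ZF7* (45.5 CPM (38.0 to 54.1)). The *A20ZF7* mice could not be told apart, since the antibody files of that genotype are identical to those of WT.

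**Figure D4:**
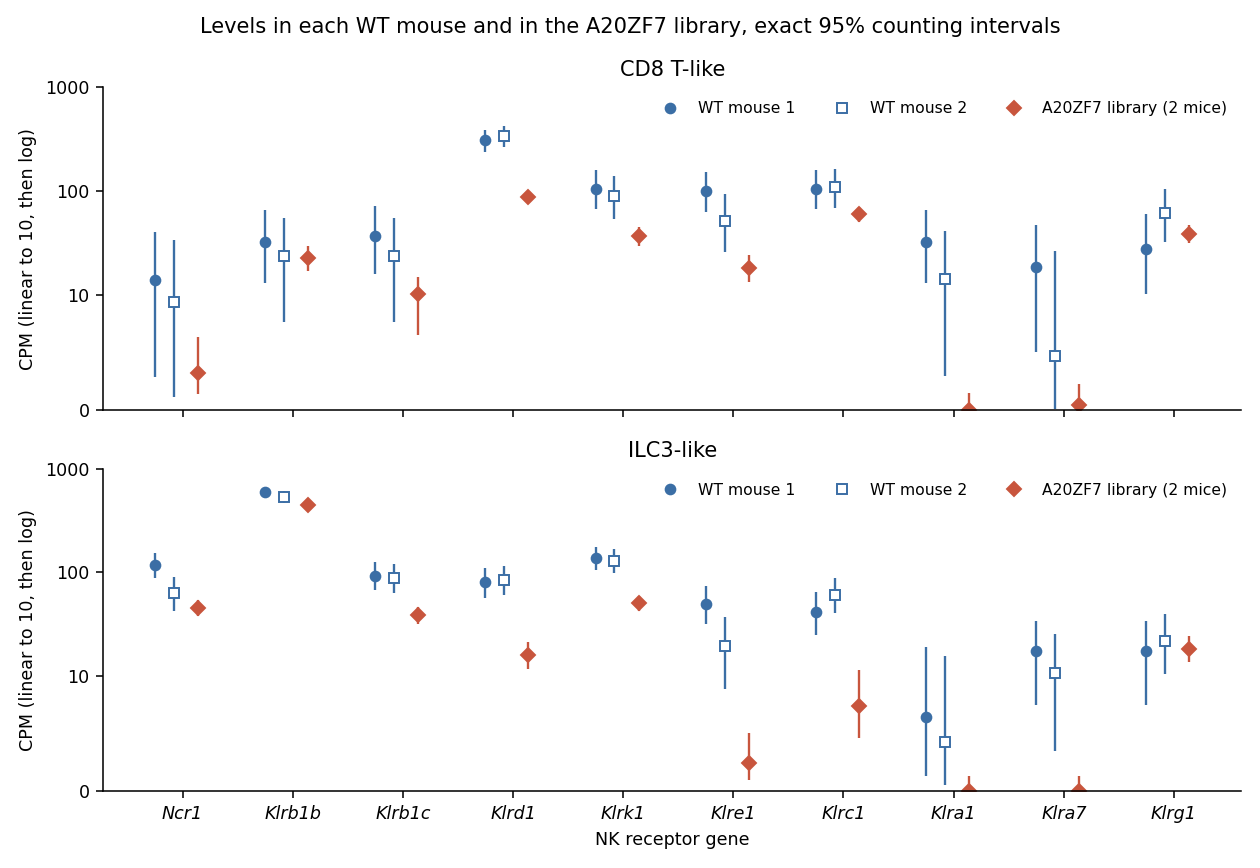
CPM of each NK receptor gene in CD8 T-like and ILC3-like cells of WT mouse 1, WT mouse 2 and the A20ZF7 library of 2 mice, with exact 95% counting intervals, on an axis that is linear to 10 and then logarithmic. In ILC3-like cells *Klrk1* stands at 138 and 129.6 CPM in the WT mice and at 50.4 CPM in A20ZF7, and *Ncr1* at 116, 62.6 and 45.5 CPM.

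Single cells were read for pairs of genes whose products are known partners. In WT CD8 T-like cells, *Klrc1* was found in 17.4% (10.8 to 25.9) of the barcodes with a *Klrd1* UMI and in 6.56% (4.401 to 9.34) of those without, at median depths of 790 and 784 UMIs. In *A20ZF7* the shares were 6.70% (3.62 to 11.2) and 3.73% (3.10 to 4.44) and overlapped. In WT ILC3-like cells, *Ncr1* was found in 22.3% (14.7 to 31.6) of the barcodes with a *Klrb1c* UMI and in 8.18% (6.71 to 9.86) of the others, and in *A20ZF7* in 10.9% (5.56 to 18.7) and 3.42% (2.81 to 4.11). Without the ILC1 or NK-like cells, the WT shares were 16.9% (9.54 to 26.7) and 7.98% (6.49 to 9.68), with intervals that met. Those of *A20ZF7* were 10.1% (4.95 to 17.8) and 3.37% (2.77 to 4.06). *Klrb1b* and *Ncr1* gave no contrast in all WT ILC3-like barcodes (8.63% (6.55 to 11.1) and 9.87% (7.76 to 12.3)). Stromal barcodes showed a like pattern at lower shares, with *Ncr1* in 8.82% (3.31 to 18.2) of those with *Klrb1c* and 0.748% (0.562 to 0.974) of the others in WT, at median depths of 1809 and 1132 UMIs.

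NKp46 signals through the Fc receptor γ chain. *Fcer1g* was found in 76.4% (67.9 to 83.6) of the WT ILC3-like barcodes with *Ncr1* and in 56.3% (53.5 to 59.1) of the others, and in 53.3% (44.0 to 62.5) and 39.5% (37.7 to 41.2) in *A20ZF7*. WT stromal barcodes showed the same contrast, with 56.7% (43.2 to 69.4) and 6.18% (5.64 to 6.76), at median depths of 1893.5 and 1132 UMIs. *Tbx21* or *Eomes* was found in 29.1% (20.6 to 38.9) of the WT ILC3-like barcodes with *Klrb1c* and in 9.41% (7.83 to 11.2) of the others, and in 8.91% (4.16 to 16.2) and 5.52% (4.75 to 6.37) in *A20ZF7*. *Hcst*, which encodes DAP10, the adaptor of NKG2D, was found at overlapping shares in WT ILC3-like barcodes with and without *Klrk1* (46.1% (39.1 to 53.2) and 45.2% (42.3 to 48.2)).

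Surface protein was measured for 3 members in WT by oligonucleotide-tagged antibodies, read as counts per 1000 antibody counts of the barcode. KLRG1 exceeded the 95th percentile of stromal cells in 36.5% (27.7 to 46.0) of Treg-like, 22.4% (20.4 to 24.4) of ILC2-like and 12.5% (6.63 to 20.8) of dividing T barcodes, the 3 classes with the highest *Klrg1* level, and in 7.25% (5.91 to 8.78) of ILC3-like barcodes. In ILC2-like cells it did so in 36.4% (29.2 to 44.1) of the barcodes with a *Klrg1* UMI and 20.7% (18.7 to 22.9) of those without. In stromal cells these shares were 28.7% (19.5 to 39.4) and 4.72% (4.24 to 5.23), so the contrast was not particular to ILC2-like cells. The NK1.1 and CD335 (NKp46) antibodies gave no such contrast. NK1.1 passed the stromal level in 5.83% (2.17 to 12.2) of the ILC3-like barcodes with *Klrb1c* and 4.99% (3.84 to 6.37) of the others, and CD335 in 4.88% (1.81 to 10.3) of those with *Ncr1* and 5.32% (4.12 to 6.75) of the others. In ILC1 or NK-like barcodes the shares were 12.6% (6.48 to 21.5) for NK1.1 and 10.3% (4.84 to 18.7) for CD335. The isotype control antibodies passed their own stromal level in 1.74% to 8.33% of the barcodes of any named class. A CD3 antibody passed its own in 11.4% (8.82 to 14.4) of CD8 T-like and 38.75% (28.1 to 50.3) of Th17-like barcodes, the lowest and highest T cell classes. In ILC2-like and ILC3-like barcodes it did so in 7.01% (5.84 to 8.35) and 7.92% (6.53 to 9.51). With so little CD3 signal on most T cell classes, a missing contrast was not read as absent protein.

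**Figure D5:**
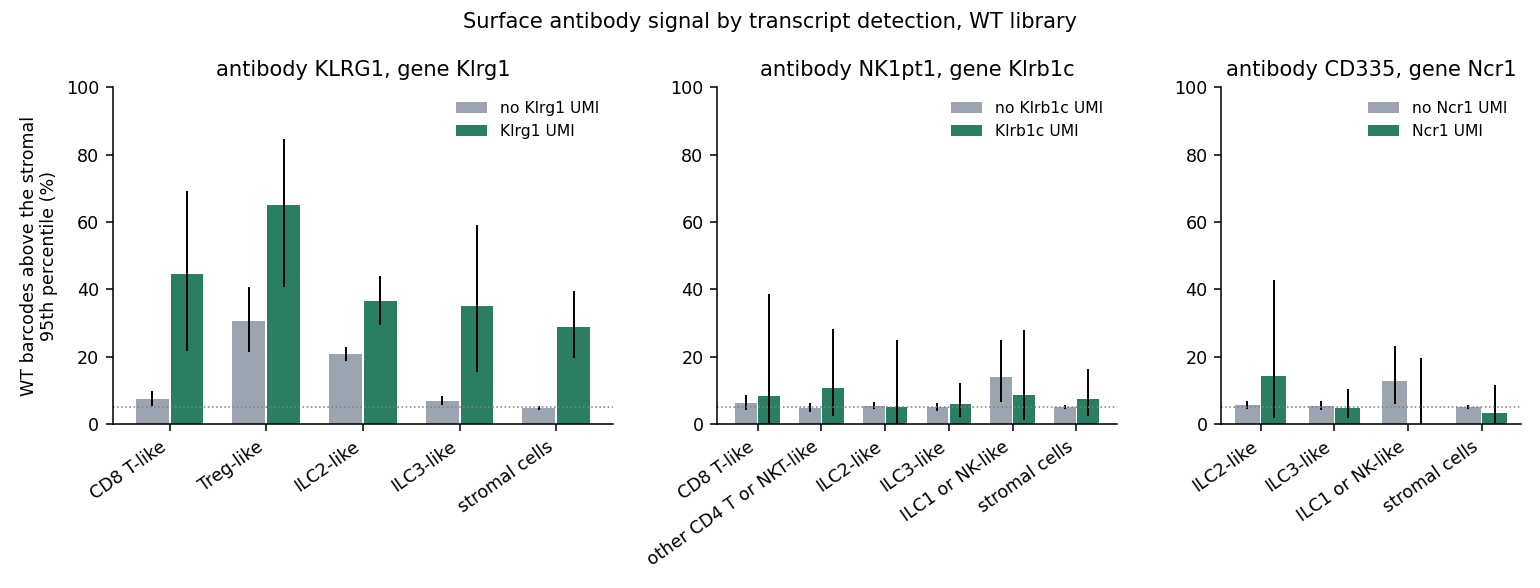
Share of WT barcodes whose antibody signal exceeded the 95th percentile of stromal cells, in percent with exact binomial 95% intervals, for barcodes with and without a UMI of the gene that encodes the protein, in classes with at least 10 barcodes with a UMI. KLRG1 differs with its transcript in ILC2-like cells (36.4% and 20.7%) and also in stromal cells (28.7% and 4.72%). NK1.1 (5.83% and 4.99%) and CD335 (4.88% and 5.32%) in ILC3-like cells do not differ beyond their intervals, with the dotted line at 5%.

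Related receptors moved in part with the members. Of 24 further receptors of NK cells and lymphocytes, 8 had a mean of at least 20 CPM in CD8 T-like cells. Of these, 3 were past the limit downward and none upward, *Cd160* (219.6 and 90.1 CPM, ratio 0.410, 0.323 to 0.523), *Cd244a* (46.9 and 12.1 CPM, ratio 0.258, 0.144 to 0.470) and *Klrc2*, the gene of NKG2C (42.6 and 12.9 CPM, ratio 0.303, 0.168 to 0.559). Their median ratio was 0.540. In ILC3-like cells, *Cd160* (ratio 0.336), *Cd226* (0.449) and *Slamf7* (0.436) were past it downward and *Tigit* upward (47.0 and 101 CPM, ratio 2.15, 1.64 to 2.86), where *Tigit* also stood at 10.8 and 75.2 CPM in stromal cells. Of 11 signaling partners, *Tyrobp* (131 and 37.0 CPM, ratio 0.283, 0.220 to 0.361) was past it downward in ILC3-like cells and the T cell signaling genes *Cd247* (ratio 2.12) and *Sh2d1a* (ratio 3.03) upward. *Cd247* and *Sh2d1a* were also past it upward in stromal and in epithelial cells.

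The genes most like the 4 members with the most UMIs were found by Pearson correlation of log2(CPM + 20) over 21 points, each a cluster within a genotype with at least 50 barcodes, among 3127 genes. The points share their 2 libraries and depth, so the values are a description. *Klrb1b* was most like *Atf3* (0.98), *Plekhg1* (0.94) and *Cited4* (0.93), and *Klrk1* was most like *Serpinb9* (0.86), *Car2* (0.86) and *Fcer1g* (0.84). *Klrd1* was most like *Cd8a* (0.82), *Cd7* (0.79) and *Epsti1* (0.78), and *Klrg1* most like *Cmtm7* (0.74), *Ttc3* (0.72) and *Gata3* (0.70).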

How the data were processed

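Per the labels and the study's methods, cells were processed with a 10x 5′ kit, and the authors counted reads with Cell Ranger and deposited UMI counts for all barcodes. The file headers name Cell Ranger 8.0.0 for gene expression and 7.1.0 for antibodies, and the labels name 7.1. Antibody files, also counts, were used for WT alone, as those of *A20ZF7* are identical to them. Barcodes passed an order-of-magnitude UMI threshold (675 in WT, 397 in *A20ZF7*) and the study's limits of 200 to 2500 genes and 15% mitochondrial counts, and WT barcodes with 2 hashtags were removed, which could not be done for *A20ZF7*. Other doublets were left in. Scrublet (scanpy 1.11.5) marked 1.18% and 1.21% of the cells in an alternative.

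Cells were clustered in Seurat 5.3.0 under R 4.3.3 (2000 variable genes without the members, 30 principal components, resolution 0.8, cell cycle regressed), first on all cells and then on lymphocyte clusters. Clusters were named from marker lists, with limits chosen once the clusters were known. The members and lists were chosen with earlier results of these data known. Stromal cells are clusters whose fibroblast or muscle genes reach 30% of their highest cluster. CPM use UMIs of shared gene IDs, with exact Poisson intervals, ratios have exact conditional intervals and shares exact binomial ones (Python 3.11.15, scipy 1.17.1). The ratio and its call were tested on simulated data. Named are the 10 members, listed genes past 2-fold or highest, and the 3 genes most like each of 4 members. Listed genes that neither rule names are given only where a result turns on them. In the annotation (GENCODE, GRCm38), exons of *Klrb1b* and *Klrb1c* overlap *Gm44511*, a gene that neither library lists. Of their 90-base windows, 22.9% and 11.5% also occur in another gene, most often *Gm44511*. For *Klrc1* this share is 18.55%, most often with *Klrc2*. The counts of *Klrb1b*, *Klrb1c* and *Klrc1* are thus less certain. The libraries share 1042 cell barcodes.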

Additional observations from a re-analysis of the deposited data

How the results depend on the processing

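The 10 genes were recomputed under 11 other settings and 5 more chosen after seeing the data (without the ILC1 or NK-like cells, stromal level taken off, classes or clusters weighted as in WT, barcodes of both libraries removed). No paired analysis was possible because each genotype is 1 library and no mouse number links them. The summed level in T cell barcodes, 0.417 of WT, was 0.345 with at least 1000 UMIs per cell, 0.333 with up to 5000 genes, 0.328 without Scrublet doublets, 0.480 with the members among the clustering genes, 0.244 with the stromal level taken off, and 0.467 and 0.524 with classes and clusters weighted as in WT. In innate lymphoid barcodes, 0.666 became 0.722 with 1000 UMIs, 1.19 with 5000 genes, 0.715 without Scrublet doublets, 0.589 with the UMI gate (T or innate by a UMI of a T cell receptor or CD3 gene), 0.710 without the ILC1 or NK-like cells, and 0.601 and 0.871 with classes and clusters weighted as in WT. The share of barcodes with a member UMI, 0.505 of WT in T cell barcodes, was 0.558, 0.446 and 0.451 with 1000 UMIs, with 5000 genes and without Scrublet doublets, and the innate share, 0.778, was 0.975 with 1000 UMIs, 1.22 with 5000 genes and 0.527 with the UMI gate. Without WT replicate 1 or 2 (mouse 1 or mouse 2), the summed ratios ranged from 0.351 to 0.405 in T cell and from 0.696 to 0.736 in innate barcodes, the shares from 0.462 to 0.465 and from 0.762 to 0.826. Both settings kept only the WT barcodes given to the other mouse, so WT barcodes given to neither mouse were left out as well. The 7 members past the limit downward in innate barcodes became 2 with 5000 genes, 4 without Scrublet doublets and 3 with the UMI gate, and 1 was past it upward with 5000 genes, and the 6 in T cell barcodes ranged from 6 to 9. No such count was made for the weighted settings, whose ratios have no interval. The counts under the other settings have no share over all genes beside them. With clusters weighted as in WT, *Klrb1c* (0.524) and *Klrk1* (0.528), which are among those 6, lay above 0.5 in T cell barcodes. Single members of innate barcodes turned above 1, with 5000 genes *Ncr1* at 2.70, *Klrb1b* at 1.62 and *Klrb1c* at 1.27, with clusters weighted as in WT *Klrb1c* at 1.18 and *Klrg1* at 2.59, with classes weighted *Klrg1* at 1.11 and with 1000 UMIs *Klrg1* at 1.33, and in T cell barcodes *Ncr1* at 1.13 with clusters weighted. With 5000 genes the cluster that held most WT ILC3-like cells took no name, with 1000 UMIs no ILC3-like cluster did, and without Scrublet doublets these cells shared a cluster with γδ T cells. Of 316 single-gene values, 248 stayed within the interval of the reported ratio, and the 8 above are those that lay on the other side of 1. Other innate ratios came nearer to 1 without crossing it. *Klrd1*, reported as 0.377, was 0.962 with the UMI gate. *Klrc1*, reported as 0.326, was 0.898 with 1000 UMIs, and *Klrk1*, reported as 0.375, was 0.818 with 5000 genes. Depth limits *Klra1* and *Klra7*, with 21 and 28 UMIs in WT T and innate lymphoid barcodes, and the WT Treg-like, Th17-like and dividing T classes.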

Other observations

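Ligands of these receptors were read in the same barcodes. Of 11 listed ligand genes, 5 had a mean of at least 20 CPM in T cell barcodes and 1 was past the 2-fold limit, *Raet1e*, which encodes a stress-induced ligand of NKG2D, with 30.8 and 95.8 CPM in WT and *A20ZF7* (ratio 3.11, 2.43 to 4.03). In innate lymphoid barcodes *Raet1e* stood at 21.8 and 56.5 CPM (ratio 2.59, 1.996 to 3.41), and in stromal cells at 4.74 and 36.4 CPM (ratio 7.68, 5.67 to 10.6). *Cdh1*, which encodes the KLRG1 ligand E-cadherin, stood at 36.2 and 14.1 CPM in CD8 T-like cells (ratio 0.390, 0.213 to 0.743).

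Of the 9 genes listed as markers of ILC1 or NK cells, *Xcl1*, a chemokine gene of cytotoxic lymphocytes, stood at 576 and 65.0 CPM in CD8 T-like (ratio 0.113, 0.0924 to 0.138) and 388 and 45.2 CPM in ILC3-like cells (ratio 0.117, 0.0953 to 0.141). *Tbx21* stood at 105 and 32.1 CPM in ILC3-like cells (ratio 0.307, 0.233 to 0.401), while *Eomes*, *Gzma* and *Gzmb* were past the limit upward there. *Gzma* and *Gzmb* were also past it upward in stromal and in epithelial cells, and *Xcl1* was past it downward in stromal cells.

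WT ILC3-like barcodes given to neither mouse by their hashtags (527 of 1325) did not have the same levels as those given to a mouse. *Klrb1b* stood at 828 CPM (749 to 914) in them, against 591 and 531 CPM in mouse 1 and mouse 2, and *Klrk1* at 243 CPM (201 to 292), against 138 and 129.6 CPM. *Klrd1* was at 35.6 CPM (20.8 to 57.1), against 79.8 and 84.2 CPM, an interval that met that of mouse 1, and *Klra7* had no UMI in them. Their median depth was 814 UMIs, against 979 and 1054 UMIs. *Klrd1* was also the only member whose intervals in the WT mice did not meet in a class, other CD4 T or NKT-like cells, with 29.7 CPM (16.2 to 49.8) and 76.0 CPM (52.6 to 106).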
